A study of Mus musculus with 12 samples.

Results

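Kinesins and cytoplasmic dyneins, the motor proteins that carry cargo along microtubules, were examined by their transcripts in the cortex of 12 mice. The genes were chosen by name, with earlier results of these data already known. The rule took rows named Kif with a number, Klc1 to Klc4, Dync1 or Dync2 subunits, or Dynl light chains. They came to 58 of the 48526 genes in the deposited tables, 41 kinesin and 17 dynein genes, and include 1 processed pseudogene, Dynlt1-ps1. All mice were on a C57Bl/6 background and received no treatment. Of these, 6 were labelled transgenic (TAU58/2) and 6 non-transgenic, with 3 biological replicates of each label at 3 months and 3 at 10 months of age. TAU58/2 mice carry human tau with the P301S mutation under a Thy1 promoter, which is active in neurons, so the transgene acts in neurons while RNA was taken from whole cortex. Values are deposited FPKM, in which the fragments of a gene are divided by its length and by the size of its library. They are per length, which lets levels of different genes be compared. The sources used here do not say whether a gene's value covers all its transcripts or only some, so the levels, shares and steps given are those of the deposited values.

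In axons, kinesins mostly walk toward the growing plus ends of microtubules, away from the cell body, and cytoplasmic dynein walks back toward the minus ends. Kinesin-1 is a pair of heavy chains (Kif5a, Kif5b or Kif5c), which hold the motor, with light chains (Klc1 to Klc4) that bind cargo. Dynein-1 is built on the heavy chain Dync1h1, to which intermediate, light intermediate and light chains are attached. Tau binds the same microtubules, and neurons rely on both motors because their axons are long.

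The libraries summed to between 125933 and 158077 FPKM. Their absolute depth is unknown, and the steps of low values, which only 7.1% to 10.9% of low genes shared, placed the others at 1.07 to 1.37 times the depth of 10-month control 1. Mapt and Thy1, under which fragments of the transgene could be counted, were compared with the labels. At 3 months transgenic-labelled libraries had 43.3 to 47.6 FPKM of Mapt and controls 6.64 to 12.0 FPKM, and Thy1 was at 410 to 441 against 105 to 140 FPKM. At 10 months neither followed the labels, with Mapt at 42.6, 12.4 and 3.31 FPKM where the label was transgenic and 42.7, 8.13 and 9.08 FPKM where it was control. Thy1 was then at 172, 114 and 159 against 115, 314 and 176 FPKM. The direction of every genotype difference at 10 months below therefore rests on labels that these genes did not bear out. Mapt lay at 3.31 to 12.4 or at 42.6 to 47.6 FPKM in every library, separate levels like those of some motor genes below. Whether its levels came from the transgene was not tested, so Mapt alone cannot settle the labels at either age. None of the 7 neuron markers was listed at 0 in all libraries. Their summed level was 339 FPKM in 10-month transgenic 2, 463 FPKM in 3-month control 3 and 533 to 649 FPKM in the others. The markers did not fall together in 10-month transgenic 2. Snap25 (131 FPKM) and Slc17a7 (98.2 FPKM) had their lowest values there, and Gad1 (39.1 FPKM) its highest. Rbfox3 (12.5 FPKM) and Map2 (15.6 FPKM) were not low in that library. Astrocyte markers summed to 565 FPKM and oligodendrocyte markers to 533 FPKM in 10-month transgenic 3, against 242 to 352 and 213 to 413 FPKM in the other libraries. Most of that astrocyte sum was Aldoc, at 474 FPKM, while Aqp4 had its lowest value there, 0.207 FPKM. The neuron sum was also highest in 10-month transgenic 3, at 649 FPKM. Choroid plexus markers summed to 730 FPKM in 3-month control 1, 442 FPKM in 10-month transgenic 1 and 303 FPKM in 3-month transgenic 3, and to at most 63.5 FPKM elsewhere. The 10-month transgenic 1 library held 11228 FPKM of the pituitary hormone gene Gh, against at most 37.4 FPKM in the other libraries. In whole cortex, fewer cells of a type and less RNA per cell cannot be told apart.

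Of the 58 genes, 27 averaged 1 FPKM or more in some group and were tested, 16 kinesin and 11 dynein genes. Kif17, at a largest group mean of 1.60 FPKM, was just inside this limit, and Dynlrb2, at 0.842 FPKM, just outside. Of the 31 others, 21 were listed at 0 in all 12 libraries, and the other 10 never exceeded 1.35 FPKM. Among the tested genes, 19 averaged 10 FPKM or more over the libraries and 6 averaged 50 or more. Since Kif5a was listed at 0 in 1 library and at 340 FPKM or more in the rest, an entry of exactly 0 may be a failed estimate, and such genes are reported only as listed at 0.

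**Figure D1:**
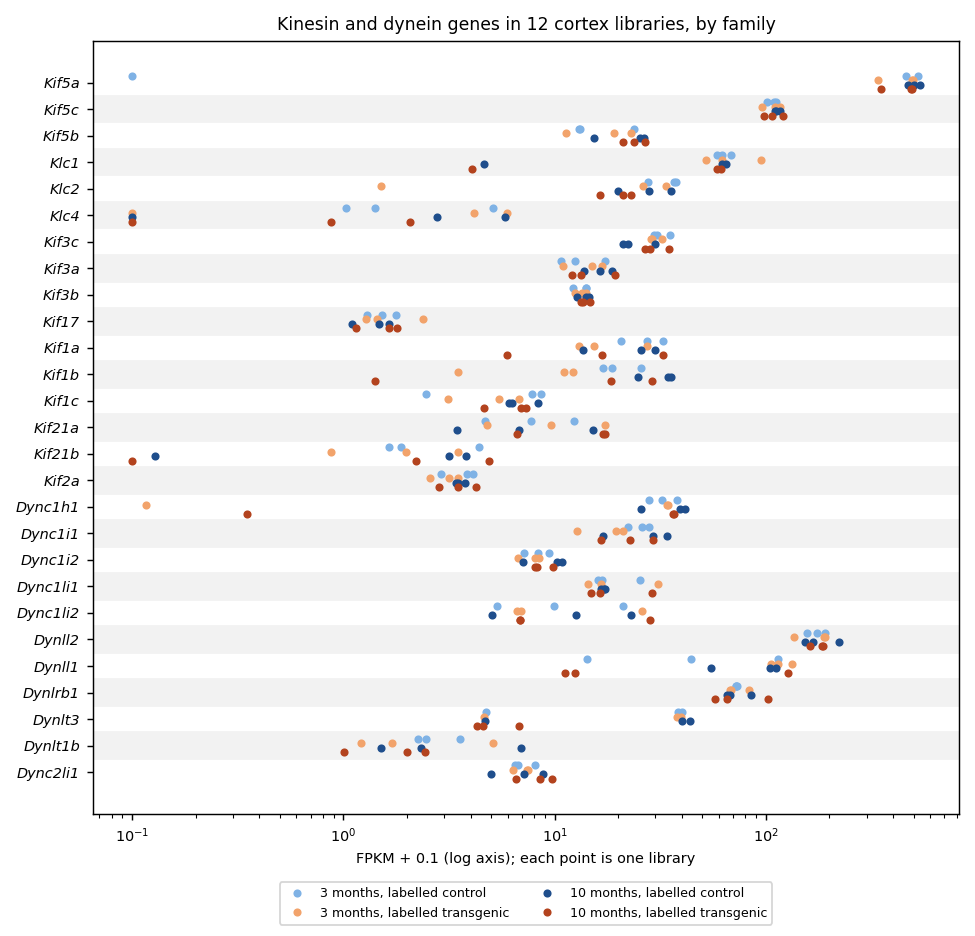
FPKM + 0.1 on a log axis for the 27 tested motor genes, ordered by family, with 1 point per library and 4 groups of 3 libraries by colour. Kif5a led with 11 points between 340 and 536 FPKM, Kif3b and Kif5c formed tight clusters, and Dynlt3, Klc1, Dync1h1 and Dynll1 each had points at separate levels.

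Kif5a, the neuronal kinesin-1 heavy chain (chromosome 10, 127225696 to 127263348, minus strand, GRCm38), was the most abundant motor gene, ranking 21 of all genes by its mean. At 3 months it was at 525, 461 and 0 FPKM in the control libraries and at 340, 495 and 489 FPKM in transgenic-labelled ones. At the later age it was at 468, 536 and 504 FPKM in controls and at 491, 488 and 351 FPKM in those labelled transgenic. All libraries lay between 340 and 536 FPKM except the 3-month control 3 library, in which the gene was listed at 0. In that library Kif5c was at 101 FPKM and the neuron markers summed to 463 FPKM. That sum was lower than in any other library except 10-month transgenic 2. Of the neuron markers in 3-month control 3, Slc17a7 was low, at 102 FPKM. Snap25 (294 FPKM), Rbfox3 (11.7 FPKM) and Syt1 (29.2 FPKM) were within their ranges in the other libraries.

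Kif5c, also a neuronal heavy chain (chromosome 2, 49619298 to 49774778, plus strand), was the paralog next in level and among the steadiest members. Kif5c was at 109, 112 and 101 FPKM in 3-month controls and 96.2, 116 and 111 FPKM in 3-month libraries labelled transgenic, and at 112, 111 and 116 and 107, 121 and 97.7 FPKM in the 10-month libraries of the same labels. All 12 libraries lay close together. Its group means were 107 ± 5.82 FPKM in 3-month controls and 108 ± 10.3 FPKM in 3-month libraries labelled transgenic. At 10 months they were 113 ± 2.76 and 108 ± 11.5 FPKM (SD, n = 3 each). Its coefficient of variation over the 12 libraries was 6.89%, against a median of 42.4% over all 9846 genes tested. Kif5b, the heavy chain made in most cell types (chromosome 18, 6201002 to 6242174, minus strand), was lower. Kif5b was at 23.6, 12.9 and 13.1 FPKM in 3-month controls and 18.9, 22.99 and 11.3 FPKM in 3-month libraries labelled transgenic, and at 25.3, 15.2 and 26.3 and 23.8, 26.6 and 21.02 FPKM in the 10-month libraries of the same labels. Its groups overlapped at each age. Kif5a made up between 74.7% and 81.0% of the summed level of the 3 heavy chains in the 11 libraries that listed it above 0.

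Of the light chains, which link kinesin-1 to its cargo, Klc1 had the highest mean (chromosome 12, 111758849 to 111807844, plus strand). It was at 58.6, 68.2 and 62.1 FPKM in 3-month controls and at 94.5, 61.7 and 51.9 FPKM in 3-month libraries labelled transgenic. In 10-month mice it was at 4.55, 65.0 and 62.1 FPKM in controls and at 61.4, 58.4 and 3.95 FPKM in those labelled transgenic. Klc1 was thus low in 1 library of each 10-month group, and 10 libraries lay at or above 51.9 FPKM. Klc2, a light chain of the same role (chromosome 19, 5107746 to 5118560, minus strand), was at 36.6, 27.7 and 37.5 FPKM in 3-month controls and at 1.42, 26.1 and 33.7 FPKM in 3-month libraries labelled transgenic. At 10 months it was at 19.8, 35.6 and 27.9 FPKM in controls and at 21.04, 23.0 and 16.2 FPKM in those labelled transgenic. Here a different library, 3-month transgenic 1, stood apart, while Klc1 was highest in that library. Klc4 was between 0 and 5.86 FPKM and listed at 0 in 3 libraries, and Klc3 was listed at 0 in 10.

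Kinesin-2 motors work in axons and in cilia, with Kif3a and Kif3b or Kif3c as paired heavy chains. Kif3c (chromosome 12, 3365132 to 3406494, plus strand) led the family at 29.5, 35.1 and 30.5 FPKM in 3-month controls and 28.5, 28.7 and 32.0 FPKM in 3-month libraries labelled transgenic. At the later age it was at 29.6, 22.2 and 21.1 FPKM in controls and at 28.2, 34.8 and 26.6 FPKM in those labelled transgenic. The lowest values were those of the 10-month control 2 and 3 libraries, and all groups overlapped. Kif3a was at 10.6, 12.4 and 17.2 FPKM in 3-month controls and 10.8, 14.9 and 16.6 FPKM in 3-month libraries labelled transgenic, and at 13.7, 18.7 and 16.2 and 13.2, 19.2 and 11.96 FPKM in the 10-month libraries of the same labels. The groups overlapped at each age. Kif3b had the smallest spread of the 27 genes, from 12.1 to 14.6 FPKM, a coefficient of variation of 5.87%. Kif17, a motor of dendrites, was at 0.995 to 2.28 FPKM.

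In the kinesin-3 family, Kif1a carries synaptic vesicle precursors and Kif1b is a close relative with vesicle and mitochondrial cargo. Kif1a (chromosome 1, 93015464 to 93101951, minus strand) was at 20.5, 32.4 and 27.4 FPKM in 3-month controls and at 12.9, 15.3 and 27.4 FPKM in 3-month libraries labelled transgenic. In 10-month mice it was at 13.5, 29.8 and 25.7 FPKM in controls and at 16.6, 32.3 and 5.88 FPKM in those labelled transgenic. The groups overlapped at each age, and the lowest value was that of the 10-month transgenic 3 library. Kif1b (chromosome 4, 149176319 to 149307693, minus strand) was at 18.6, 16.9 and 25.4 FPKM in 3-month controls and at 3.397, 11.0 and 12.1 FPKM in 3-month libraries labelled transgenic. At 10 months it was at 24.7, 34.5 and 35.4 FPKM in controls and at 28.9, 18.3 and 1.31 FPKM in those labelled transgenic. At 3 months every library labelled transgenic was below every control, and at 10 months the groups overlapped. Kif1c ranged from 2.36 to 8.51 FPKM, Kif16b never exceeded 0.553 FPKM, and Kif13a and Kif13b were listed at 0 throughout.

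Kif21a, a kinesin-4 that holds back microtubule growth (chromosome 15, 90933276 to 91049948, minus strand), was at 4.60, 7.61 and 12.3 FPKM in 3-month controls and at 9.48, 17.1 and 4.70 FPKM in 3-month libraries labelled transgenic. At the later age it was at 3.36, 15.1 and 6.70 FPKM in controls and at 16.9, 17.3 and 6.55 FPKM in those labelled transgenic. The groups overlapped at each age. Its relative Kif21b was low throughout. Kif21b was at 1.78, 4.27 and 1.54 FPKM in 3-month controls and 0.7704, 1.89 and 3.39 FPKM in 3-month libraries labelled transgenic, and at 0.0279, 3.07 and 3.701 and 2.11, 4.78 and 0 FPKM in the 10-month libraries of the same labels. Kif2a, a kinesin-13 that takes microtubule ends apart instead of walking, stayed between 2.47 and 4.13 FPKM. Kif2a was at 2.801, 4.02 and 3.75 FPKM in 3-month controls and 3.399, 3.05 and 2.47 FPKM in 3-month libraries labelled transgenic, and at 3.32, 3.4 and 3.66 and 3.403, 4.13 and 2.73 FPKM in the 10-month libraries of the same labels. Of the 11 kinesins of cell division, 10 were listed at 0 in every library and Kif22, which binds chromosomes, stayed between 0.00471 and 0.0973 FPKM. Mki67, a marker of dividing cells, was listed at 0 in every library too, and the 5 markers of dividing cells summed to at most 0.230 FPKM.

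Dync1h1, the heavy chain that holds the dynein-1 motor (chromosome 12, 110601452 to 110666945, plus strand), measured 28.0, 37.9 and 32.3 FPKM in 3-month controls and 0.0168, 34.0 and 34.3 FPKM in 3-month libraries labelled transgenic. In 10-month mice it was at 25.6, 39.2 and 41.3 FPKM in controls and at 36.5, 36.1 and 0.25 FPKM in those labelled transgenic. In 10 libraries it lay between 25.6 and 41.3 FPKM, and in 1 library of each transgenic-labelled group it was near 0. In the same pair of libraries, 3-month transgenic 1 and 10-month transgenic 3, Kif1b also had its lowest values. The heavy chain of dynein-2, Dync2h1, a motor of cilia, never exceeded 0.0105 FPKM, whereas its light intermediate chain Dync2li1 was present in every library. Dync2li1 was at 6.39, 6.59 and 7.97 FPKM in 3-month controls and 7.39, 7.27 and 6.29 FPKM in 3-month libraries labelled transgenic, and at 8.75, 7.101 and 4.91 and 8.41, 6.45 and 9.65 FPKM in the 10-month libraries of the same labels. Its groups overlapped at each age.

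The intermediate chains hold dynein's cargo side together. Dync1i1, mostly neuronal (chromosome 6, 5725639 to 6028039, plus strand), measured 22.2, 27.9 and 25.9 FPKM in 3-month controls and 20.9, 12.6 and 19.4 FPKM in 3-month libraries labelled transgenic. At 10 months it was at 34.0, 29.0 and 16.9 FPKM in controls and at 29.1, 16.5 and 22.6 FPKM in those labelled transgenic. The groups did not overlap at 3 months and overlapped at 10 months. Dync1i2 is the chain made more widely. Dync1i2 was at 8.29, 9.29 and 7.05 FPKM in 3-month controls and 6.63, 7.996 and 8.31 FPKM in 3-month libraries labelled transgenic, and at 10.2, 10.7 and 7.01 and 9.68, 8.17 and 7.98 FPKM in the 10-month libraries of the same labels. Dync1i1 thus made up 61.3% to 78.6% of the summed level of both.

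The light intermediate chains bind adaptors of cargo. Dync1li1 (chromosome 9, 114688790 to 114724302, plus strand) was at 14.3 to 17.2 FPKM in 9 libraries and at 25.3, 30.7 and 28.8 FPKM in the 3-month control 1, 3-month transgenic 1 and 10-month transgenic 2 libraries. Dync1li2 (chromosome 8, 104417680 to 104443047, minus strand) was at 20.98, 25.8, 22.9 and 28.0 FPKM in the 3-month control 2, 3-month transgenic 1, 10-month control 3 and 10-month transgenic 2 libraries, and at 4.96 to 12.6 FPKM in the other 8. The high libraries of each gene came from both labels.

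The LC8 light chains Dynll1 and Dynll2 are small dimers that serve dynein and many other proteins, and their proteins are close to identical. Their coding sequences differ, which bears on whether fragments of either gene could have been counted under the other. They are shown from the GENCODE transcripts of GRCm38, without the stop codon, with bases that differ between them in capitals.
Dynll1: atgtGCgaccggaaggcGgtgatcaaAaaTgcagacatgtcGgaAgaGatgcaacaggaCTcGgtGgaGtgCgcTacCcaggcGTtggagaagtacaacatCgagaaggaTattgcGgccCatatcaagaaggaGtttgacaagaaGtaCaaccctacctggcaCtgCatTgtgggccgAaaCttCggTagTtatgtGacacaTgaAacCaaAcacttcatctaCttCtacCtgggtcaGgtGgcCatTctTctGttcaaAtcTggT
Dynll2: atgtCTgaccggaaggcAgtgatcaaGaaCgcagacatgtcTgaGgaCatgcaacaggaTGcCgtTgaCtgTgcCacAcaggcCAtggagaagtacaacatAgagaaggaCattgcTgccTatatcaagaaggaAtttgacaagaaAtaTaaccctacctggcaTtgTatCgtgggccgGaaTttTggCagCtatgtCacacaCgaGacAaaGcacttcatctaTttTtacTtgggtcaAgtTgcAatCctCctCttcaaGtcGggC
They differ at 50 of 267 bases (81.3% identity) and share none of their 237 words of 31 bases.

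Dynll2 (chromosome 11, 87979525 to 87987533, minus strand) was at 175, 157 and 191 FPKM in 3-month controls and at 136, 190 and 188 FPKM in 3-month libraries labelled transgenic. At the later age it was at 221, 167 and 153 FPKM in controls and at 184, 186 and 161 FPKM in those labelled transgenic. Its highest library was 1.62 times its lowest, and the groups overlapped. Dynll1 (chromosome 5, 115297110 to 115300999, minus strand) was at 114, 14.1 and 44.0 FPKM in 3-month controls and at 133, 105 and 114 FPKM in 3-month libraries labelled transgenic. In 10-month mice it was at 54.9, 111 and 105 FPKM in controls and at 12.4, 11.1 and 127 FPKM in those labelled transgenic. Of the 12 libraries, 7 lay between 105 and 133 FPKM, 3 between 11.1 and 14.1 FPKM, and 2 between those levels, at 44.0 and 54.9 FPKM. The low libraries were 3-month control 2 and 10-month transgenic 1 and 2. Dynll2 was at 157, 184 and 186 FPKM in these 3, within its range in the others.

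Dynlrb1, a roadblock light chain (chromosome 2, 155236533 to 155250277, plus strand), was abundant. Dynlrb1 was at 72.4, 72.02 and 72.8 FPKM in 3-month controls and 83.2, 68.1 and 67.3 FPKM in 3-month libraries labelled transgenic, and at 85.3, 67.4 and 65.4 and 65.4, 57.2 and 102 FPKM in the 10-month libraries of the same labels. Most libraries lay within a narrow band, with group means between 72.4 ± 0.383 FPKM in 3-month controls and 74.9 ± 23.9 FPKM in 10-month libraries labelled transgenic (SD, n = 3 each). Dynlrb2, its relative in ciliated cells, was at 0 to 1.35 FPKM. Its highest value was in the 10-month transgenic 3 library, where the 8 measured markers of ciliated ependymal cells summed to 5.54 FPKM. Its next highest, 1.07 FPKM, was in 3-month control 3, where they summed to only 1.36 FPKM. In 3-month transgenic 1 and 3 Dynlrb2 was listed at 0, at sums of 3.05 and 3.34 FPKM. The sum of these markers was 0.424 to 6.16 FPKM over all libraries, and Dnah5 was at 0 in each. The part of that sum in the Dynlrb2 values was not tested.

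The Tctex light chain Dynlt3 (chromosome X, 9654267 to 9663003, minus strand) had the clearest pair of levels. It was at 4.64, 38.3 and 39.9 FPKM in 3-month controls and at 37.8, 39.5 and 4.53 FPKM in 3-month libraries labelled transgenic. At 10 months it was at 43.8, 40.0 and 4.59 FPKM in controls and at 4.51, 6.68 and 4.17 FPKM in those labelled transgenic. In all, 6 libraries lay between 37.8 and 43.8 FPKM and 6 between 4.17 and 6.68 FPKM, with none between. Every group held low libraries, and the 10-month group labelled transgenic held only low ones. Dynlt3 shares no word of 31 bases with a transcript of another gene.

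The genes Dynlt1a, Dynlt1b, Dynlt1c and Dynlt1f are near-identical copies on chromosome 17, so their values are uncertain. The coding sequences of Dynlt1a, Dynlt1c and Dynlt1f are the same in all 339 bases, and Dynlt1b differs from them at 1 base, C21A, counted from the first base of the start codon with the base of Dynlt1a first. Dynlt1a and Dynlt1b are shown over their first 60 bases, from the same source, with that base in capitals, since a coding fragment that misses it cannot be placed.
Dynlt1a: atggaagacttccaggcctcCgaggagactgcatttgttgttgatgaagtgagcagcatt
Dynlt1b: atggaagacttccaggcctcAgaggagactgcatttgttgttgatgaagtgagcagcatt
Of the 309 words of 31 bases in each, 288 are common to both. Dynlt1b was at 2.16, 2.37 and 3.46 FPKM in 3-month controls and 5.04, 1.597 and 1.11 FPKM in 3-month libraries labelled transgenic, and at 6.83, 1.41 and 2.23 and 2.33, 0.913 and 1.91 FPKM in the 10-month libraries of the same labels. Dynlt1c never exceeded 0.957 FPKM, Dynlt1f was above 0 in 1 library only, and Dynlt1a and Dynlt1-ps1 were listed at 0 in every library.

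**Figure D2:**
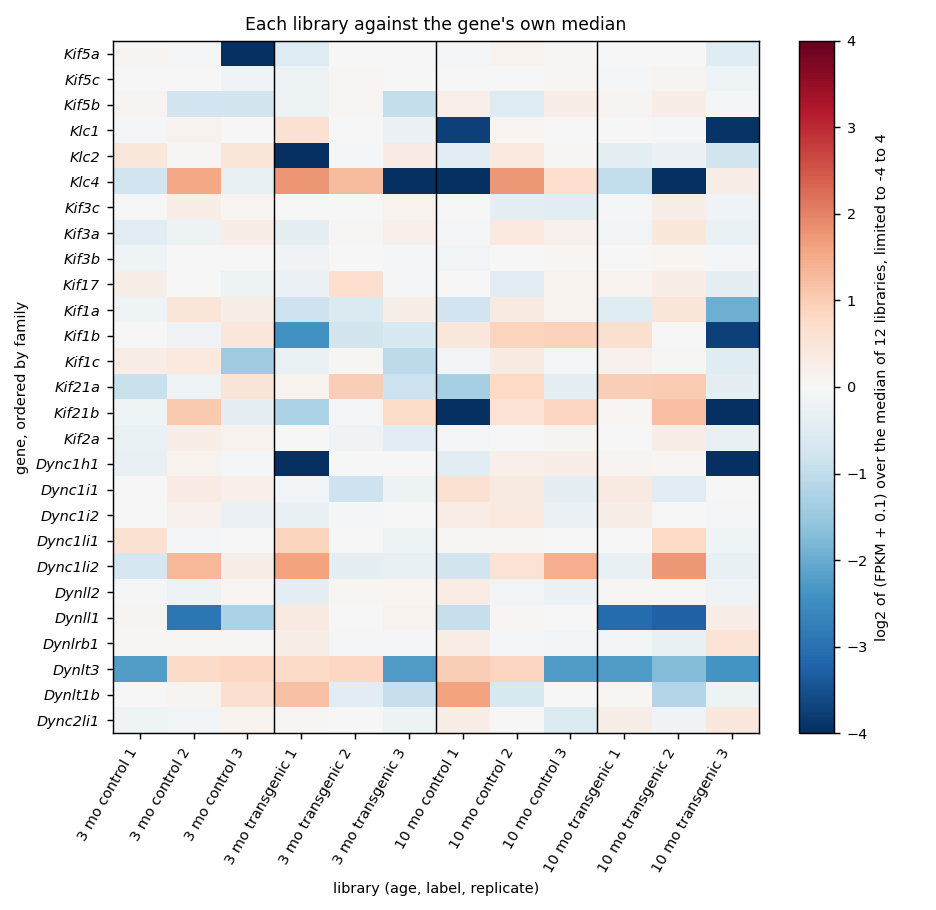
Each library's FPKM + 0.1 over the gene's median of the 12 libraries, as log2 limited to the range from -4 to 4, for the 27 tested genes in rows and libraries in columns, with lines between groups. Single dark cells stand in rows that are otherwise pale, as for Kif5a in the 3-month control 3 library and Dync1h1 in 3-month transgenic 1 and 10-month transgenic 3.

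The separate levels were described for all 27 genes by the largest step between neighbouring values when the 12 libraries were put in order, as a ratio of FPKM + 0.1. A step of at least 3 times was found for 9 of the 27 (33.3%), against 36.1% of all genes tested. Among genes averaging 10 FPKM or more it was found for 7 of 19 motor genes (36.8%), against 19.9% of all such genes. The 9 genes with such a step were Kif5a, Dync1h1, Klc1, Klc2, Klc4, Kif21b, Dynlt3, Kif1b and Dynll1. Dynll1 was the last inside this limit with a step of 3.09 times, and Kif1a, at 2.17 times, the first outside. The number of libraries below the step was 1 for Kif5a and Klc2, 2 for Dync1h1, Klc1, Kif21b and Kif1b, 3 for Klc4 and Dynll1, and 6 for Dynlt3. The members with smaller steps included Kif3b at 1.04 times and Kif5c at 1.06 times.

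Low values were spread over libraries of all groups. Among the 22 motor genes whose median was 5 FPKM or more, values under 0.25 of that median were most frequent in the 10-month transgenic 3 library, with 4 (Dync1h1, Klc1, Dynlt3 and Kif1b), and in 3-month transgenic 1, with 3 (Dync1h1, Klc2 and Kif1b). Every other library had between 0 and 2. Over all 4390 genes with such a median, the share of low values was 7.06% in 10-month transgenic 3, 4.4% in 3-month transgenic 1 and between 3.3% and 5.06% in the others. Of the 9 genes with a step, Kif5a, Klc1, Klc2, Klc4, Kif21b and Dynlt3 share no 31-base word with another gene's transcripts, while the share was 0.536% for Dync1h1, 0.991% for Kif1b and 7.17% for Dynll1.

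**Figure D3:**
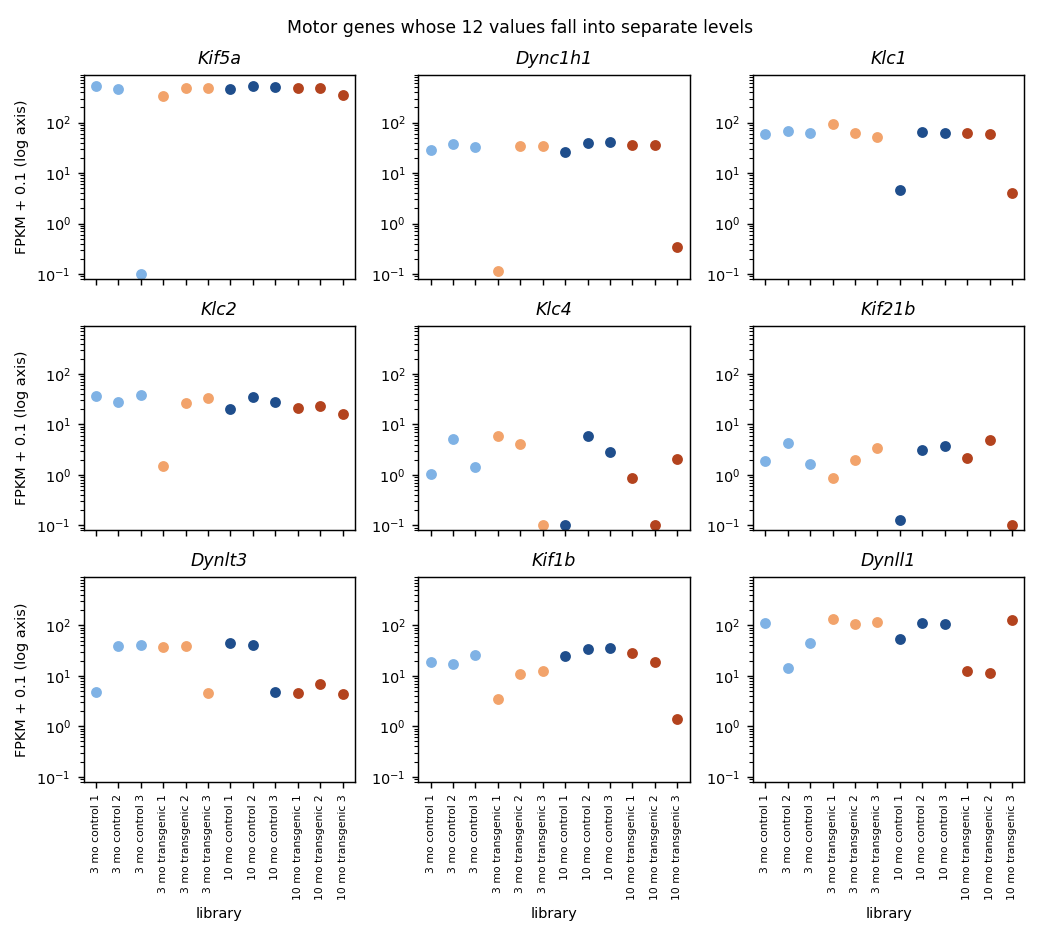
FPKM + 0.1 on a log axis by library for the 9 motor genes with a step of at least 3 times, with colours by group. The libraries at the lower level are not the same for all genes, but Dync1h1 and Kif1b share theirs, as do Klc1 and Kif21b. They were all labelled transgenic for Dync1h1, Kif1b and Klc2, control for Kif5a, and of both labels for the other genes. Dynlt3 has 6 libraries at each level.

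The first comparison asks which motor genes differed with the transgene label at 10 months. Of the 27 motor genes, 0 passed (limma, Benjamini-Hochberg adjusted p under 0.05 over all genes), against 0.0102% of the 9846 genes tested. At an unadjusted p under 0.05 there were 0 of 27, against 4.4% of all genes, and 0 had groups that did not overlap, against 8.26% of all genes. Fold changes were negative for 19 and positive for 8, against 4802 and 5044 of all 9846 genes tested. The median log2 fold change was -0.12, against 0.01 over all genes tested. Log2 fold changes of the motor genes ran from -2.16 (SE 2.25) for Dync1h1 to 0.82 (SE 0.66) for Kif21a. Kif21a was at 0.30 without 10-month control 1, 1.37 without 10-month control 2 and 1.28 without 10-month transgenic 3.

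The smallest p values at 10 months were those of Kif1b (log2 fold change -1.78, SE 0.96), Dynll1 (-1.72, SE 0.94) and Dynlt3 (-1.98, SE 1.15), each with a limma adjusted p of 0.969. Kif1b moved to -0.44 without the 10-month transgenic 3 library, and Dynll1 to -2.87 without it and to -1.11 without 10-month transgenic 2. Dynlt3 moved to -3.04 without 10-month control 3. Dync1h1 turned to 0.07 when 10-month transgenic 3 was left out. That library also had the highest sums of astrocyte, oligodendrocyte and neuron markers, at 565, 533 and 649 FPKM. Their part in these differences was not tested. Among the 12 genes with an SE of at most 0.35, which include Kif5c, Kif3b, Dynll2 and Dynlrb1, the log2 fold changes lay between -0.20 and 0.30. A p above the threshold does not show that levels were equal, and for the genes with separate levels the errors were wide.

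At 3 months, where Mapt and Thy1 followed the labels, 0 of 27 motor genes passed by the same test, against 0.0406% of all genes tested. At an unadjusted p under 0.05 there were also 0, against 3.39% of all genes. Groups did not overlap for 2 of 27, both lower where the label was transgenic, Dync1i1 and Kif1b, against 3.54% of all genes in that direction and 7.98% in either. Dync1i1 had a mean of 17.7 ± 4.42 against 25.3 ± 2.89 FPKM (SD, n = 3 each) and the smallest p (log2 fold change -0.54, SE 0.31; adjusted p = 1 by limma), and moved to -0.32 without 3-month transgenic 2. The log2 fold change of Kif1b was -1.37 (SE 0.96; adjusted p = 1 by limma), and -0.79 without the 3-month transgenic 1 library.

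Next in order at 3 months were Klc2, with a log2 fold change of -1.61 (SE 0.94), and Dynll1, with 1.497 (SE 0.94), each with a limma adjusted p of 1. Klc2 moved to -0.18 without the 3-month transgenic 1 library and to -2.42 without 3-month transgenic 3, and Dynll1 to 0.73 without the 3-month control 2 library. The extreme values were -2.66 (SE 2.25) for Dync1h1 and 3.91 (SE 2.60) for Kif5a. Each rested on a single library, since Dync1h1 was at 0.07 without 3-month transgenic 1 and Kif5a at -0.18 without 3-month control 3, and the size for Kif5a was set by the added 0.1 FPKM. The median log2 fold change was -0.02 over the motor genes and 0.02 over all genes. Of the motor genes 15 were negative and 12 positive, against 4660 and 5134 of all genes tested. The 12 genes with an SE of at most 0.35 lay between -0.54 and 0.10.

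**Figure D4:**
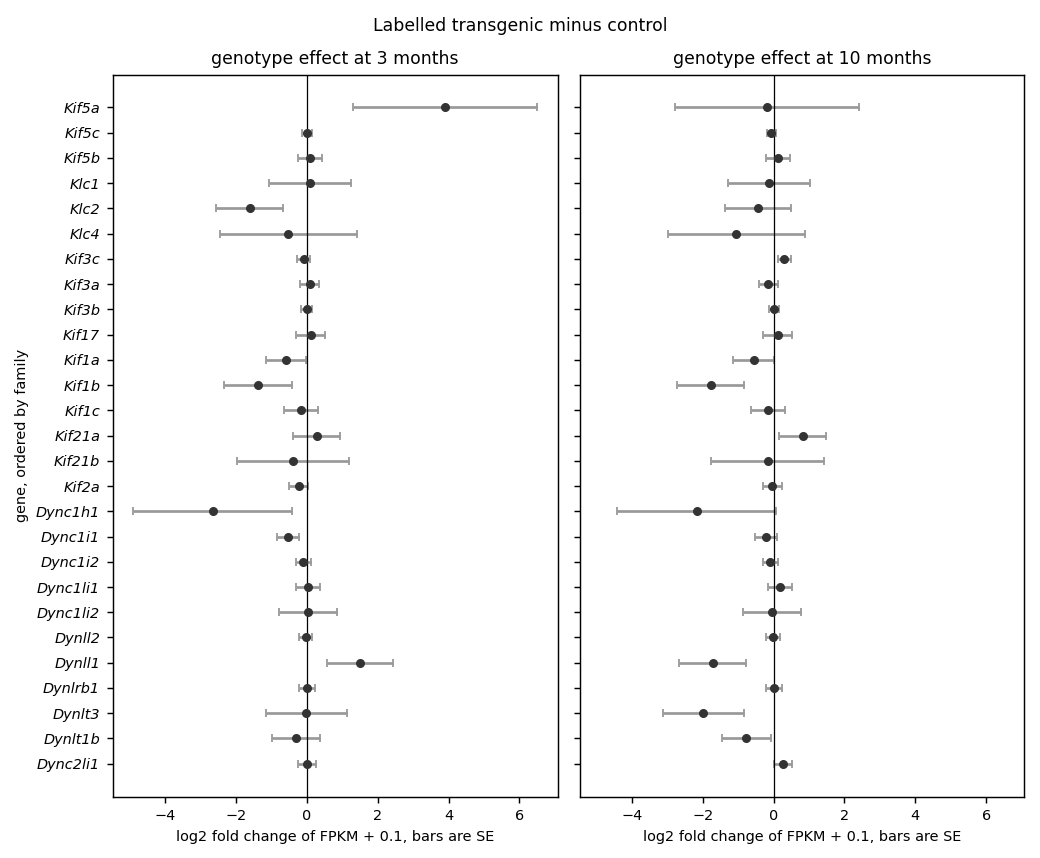
Log2 fold change of FPKM + 0.1 between libraries labelled transgenic and control for the 27 tested motor genes at 3 months (left) and 10 months (right), with bars for the SE from limma. Narrow bars near 0 mark Kif5c, Kif3b, Dynll2 and Dynlrb1, wide bars mark Kif5a and Dync1h1, and no gene passed the test.

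In the authors' deposited table, p-values were given for 35 of the motor genes at 10 months and 37 at 3 months, and 0 had a q-value under 0.05 at either age (lowest 0.811 and 0.904). A p under 0.05 was given for 2 of 35 at 10 months, Dynll1 and Kif19a, where 4.14% of all genes had one, and for 2 of 37 at 3 months, Dynll1 and Dynlrb2, where 3.22% had one. The authors' deposited table gave Dynll1 a fold change of 0.211 at 10 months (p = 0.0421) and of 3.92 at 3 months (p = 0.0379), in opposite directions. Kif19a never exceeded 0.223 FPKM.

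Whether the label difference changed with age was tested as an interaction. By limma, 0 of 27 motor genes passed, against 0.0508% of all genes, and 1 of 27 had an unadjusted p under 0.05, against 3.32% of all genes. That gene was Dynll1, whose 10-month minus 3-month difference came to -3.22 in log2 units (SE 1.33; adjusted p = 0.987 by limma). Its group means ran from 57.3 ± 51.1 FPKM in controls to 118 ± 14.4 FPKM in libraries labelled transgenic at 3 months, and from 90.2 ± 30.8 to 50.3 ± 66.8 FPKM at 10 months (SD, n = 3 each). Kif3c (0.39, SE 0.26) and Dynlt3 (-1.96, SE 1.62) followed, each with a limma adjusted p of 0.987. Dynlt3 was at -0.95 without 3-month control 1, -3.02 without 10-month control 3 and -2.98 without 3-month transgenic 3. The extremes were Kif5a at -4.11 (SE 3.67), which was -0.02 without the 3-month control 3 library, and Klc2 at 1.17 (SE 1.33), which was -0.26 without 3-month transgenic 1.

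With age in the control libraries, 0 of 27 motor genes passed by limma, against 0.0305% of all genes, 0 had an unadjusted p under 0.05, against 4.19%, and 0 did not overlap, against 10.1%. Kif3c had the smallest p, at 24.3 ± 4.65 FPKM at 10 months and 31.7 ± 3.02 FPKM at 3 months (SD, n = 3 each; log2 fold change -0.39, SE 0.18, limma adjusted p = 0.994). Kif5b had a log2 fold change of 0.45 (SE 0.34), which was 0.73 without 3-month control 1 and 0.70 without 10-month control 2. Kif5a, at 4.12 (SE 2.60), was at 0.03 without the 3-month control 3 library that listed it at 0, and Klc1, at -1.24 (SE 1.16), was at 0.02 without the 10-month control 1 library. Each age is a deposited table of its own, so age and table cannot be told apart.

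With age in the libraries labelled transgenic, 0 of 27 passed by limma, against 0.0203% of all genes, 1 had an unadjusted p under 0.05, against 4.31%, and 0 did not overlap, against 9.43%. The 1 gene was Dynll1, lower at 10 months (log2 fold change -2.17, SE 0.94; adjusted p = 0.974 by limma), and at -3.31 without the 10-month transgenic 3 library (adjusted p = 0.364 by limma, within a range of 0.364 to 1 over its settings). Dynlt3 had a log2 fold change of -1.90 (SE 1.15) and Kif5b of 0.48 (SE 0.34). Without 3-month transgenic 3 they were at -2.92 and 0.18. Klc2, the highest at 0.86 (SE 0.94), was at -0.58 without the 3-month transgenic 1 library. The genotype and age comparisons share libraries, so their values for a gene are not independent.

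**Figure D5:**
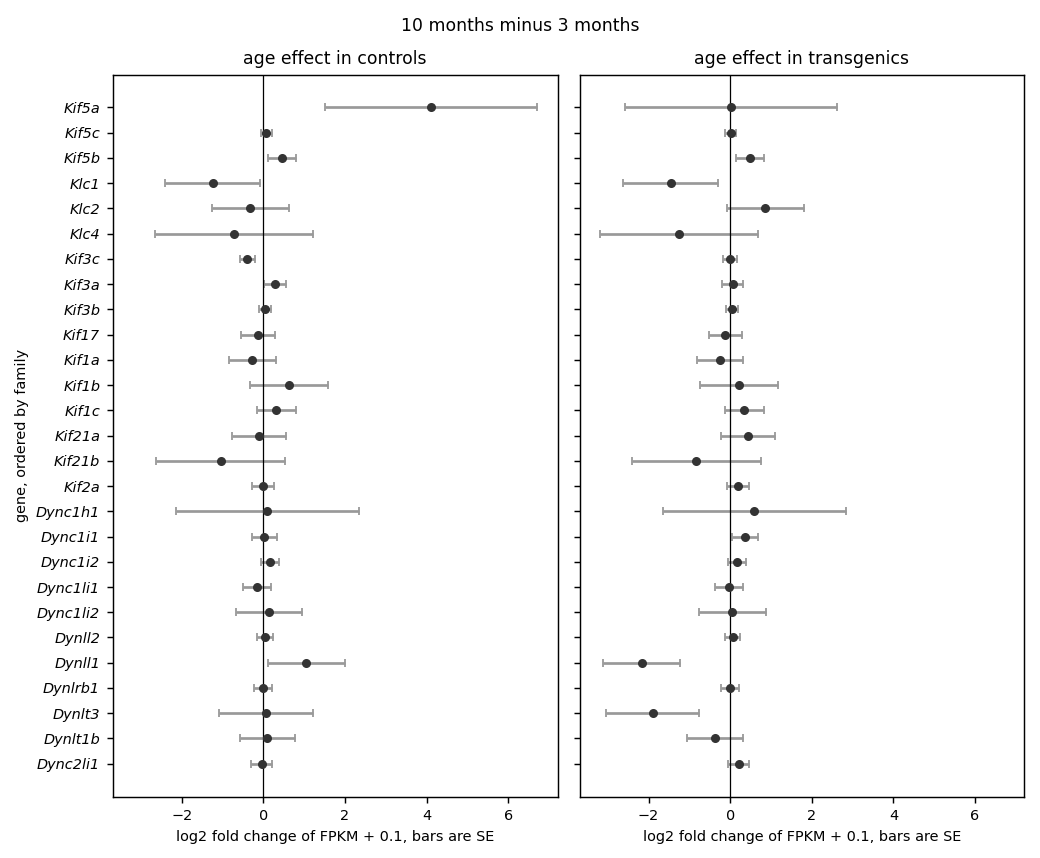
Log2 fold change of FPKM + 0.1 from 3 to 10 months for the 27 tested motor genes in libraries labelled control (left) and transgenic (right), with bars for the SE from limma. Dynll1 and Dynlt3 were at -2.17 and -1.90 on the right, Kif5a at 4.12 on the left rests on 1 library, and no gene passed the test.

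Genes that work with the motors were examined as lists. Of the 9 dynactin genes, whose complex links dynein to cargo, all were tested and 0 passed in either direction in any comparison by limma, and 1 had an unadjusted p under 0.05, Actr1a at 3 months, where 3.39% of all genes tested had one. Actr1a, the filament subunit, was at 66.5, 63.7 and 67.2 FPKM in 3-month controls and at 22.5, 63.0 and 18.6 FPKM in 3-month libraries labelled transgenic (log2 fold change -1.14, SE 0.51; adjusted p = 1 by limma). The groups did not overlap, as for 3.54% of all genes in that direction. At the later age it was at 73.8, 69.6 and 22.5 FPKM against 21.6, 22.6 and 23.0 FPKM. The log2 fold change was then -1.12 (SE 0.51; adjusted p = 0.969 by limma), close to that at 3 months. It too had separate levels, 18.6 to 23.0 FPKM in 6 libraries and 63.0 to 73.8 FPKM in the other 6, and all 3 of the 10-month libraries labelled transgenic were at the lower one.

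Of 11 regulators and adaptors of dynein, 5 were tested and 0 passed by limma, with 0 at an unadjusted p under 0.05 in any comparison, against 3.32% to 4.4% of all genes. Pafah1b1 (Lis1), which activates dynein, was at 33.4 to 49.4 FPKM in 11 libraries and at 8.05 FPKM in 10-month transgenic 3. Of 17 kinesin adaptors and regulators in the tables, 16 were tested and 0 passed by limma, with 1 at an unadjusted p under 0.05 at 3 months (Mapk8ip3), against 3.39% of all genes. With age in libraries labelled transgenic there were 2 (Mapk8ip3 and Map7d1), against 4.31% of all genes, and in the other comparisons 0, against 3.32% to 4.4%. Kifap3, the subunit that joins Kif3a and Kif3b, was steady at 55.4 to 71.5 FPKM. Mapk8ip3 (JIP3), an adaptor that links kinesin-1 and dynein to cargo, was at 7.21, 23.7 and 8.89 FPKM in 3-month controls and at 0.0635, 0.0213 and 0.0131 FPKM in 3-month libraries labelled transgenic. Its groups did not overlap at 3 months, as for 3.54% of all genes in that direction. Its log2 fold change of -6.47 (SE 1.51) had a limma adjusted p of 0.722. The transgenic-labelled values were all below the added 0.1 FPKM, so the size of this change depended on that addition. In 10-month mice it was at 8.76, 16.3 and 2.87 FPKM in controls and at 4.13, 21.2 and 0.0323 FPKM in those labelled transgenic, so that the groups overlapped. Among Kifc1 to Kifc3 and Cenpe, motors outside the naming rule, 2 were tested and 0 passed by limma, with 0 at an unadjusted p under 0.05, against 3.32% to 4.4% of all genes, and Kifc2 was at 69.8 to 131 FPKM. Besides Actr1a and Mapk8ip3, groups did not overlap at 3 months for Map7d1 and Madd, lower where labelled transgenic, and Kifc2, higher. Over all genes tested the share was 7.98% in either direction. At 10 months they did not overlap for Rhot1, higher, and Fez1, lower, against 8.26% of all genes.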

How the data were processed

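Deposited FPKM of 12 cortex libraries, made by the authors, were read from a table per age with 48526 genes each. Per the labels' protocols, libraries were stranded total RNA after ribosomal depletion. Tools named per the submitters' processing notes were StringTie 1.3.0, HISAT2 2.0.4, SAMtools 0.0.19 and R 3.4.2, and builds mm10 and GRCm38. The annotation is not given in the sources used here, nor are program options. The deposited tables also hold the authors' fold change (a ratio), its log2 value, p-values and q-values, and mean FPKM, whose test is not stated per the file headers. Groups and replicate numbers came from the labels.

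Values were analysed as log2(FPKM + 0.1), which understates changes of low genes. The 9846 genes averaging 1 FPKM or more in any group were fitted together with limma 3.58.1 in R 4.3.3 (a mean per group, eBayes with trend and robust), and p-values were adjusted by Benjamini-Hochberg over them, with 0.05 as threshold. The fit was tested on data simulated with normally distributed noise. Those data lacked the separate levels seen in many genes here, so the test does not cover genes of that kind. Pearson r across genes was 0.664 to 0.743 between libraries of a group and 0.662 to 0.741 across groups, and no 2 libraries held identical values. Steps among low values covered only 7.1% to 10.9% of low genes, so no reads were recovered. Coordinates and sequences came from GENCODE M21 (GRCm38). The motor genes, lists, steps and settings were chosen with earlier results of these data known. Named genes were the leading member of each family and its nearest paralog, the 3 smallest p values in each comparison, and members listed at 0 despite a mean of at least 5 FPKM. The extreme fold changes, Kif1b at 3 months, Actr1a, Pafah1b1, Mapk8ip3, Map7d1, Madd, Kifc2, Rhot1 and Fez1 were named after their values were seen. The alternatives were other pseudocounts, filters and scalings, the replicate block, missing zeros, each age alone, and leaving out each library.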

Additional observations from a re-analysis of the deposited data

How the results depend on the processing

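In each of the 5 comparisons the number of motor genes past the threshold was 0, and it stayed 0 in all alternatives run, from 0 to 0 over the 12 fits that left out a library, and with 10-month transgenic 3 and 3-month transgenic 1 both left out, a setting chosen after seeing the data. With the replicate block the count was 0 in every comparison. The labels do not say that a number marks a shared litter or batch, and deviations of same-numbered libraries had a correlation between -0.12 and 0.09 over 18 pairs. Over all genes, the count of 1 at 10 months ranged from 0 to 8 and the 4 at 3 months from 4 to 12 with a library left out.

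Of 24 fold changes of named genes, 18 kept their sign under all settings and 0 passed in any. For the other 6, the range over the libraries left out was -3.29 to 0.0693 for Dync1h1 at 10 months, -4.03 to 0.0712 at 3 months, -0.18 to 6.00 for Kif5a at 3 months, -1.89 to 0.0153 for Klc1 with age in controls, and, for Klc2, -0.26 to 1.98 for the interaction and -0.58 to 1.66 with age in libraries labelled transgenic. Kif5a at 3 months was also at -0.18 with zeros set to missing. With both libraries left out, Dync1h1 was at 0.0693 at 10 months and 0.0712 at 3 months, and Klc2 at -0.11 for the interaction and -0.43 with age. Absolute depth is unknown, so no detection floor is given.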
